A study of Mus musculus with 6 samples.

Results

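Forkhead factors are transcription factors that bind DNA through a winged-helix domain, and 10 of their genes were followed here in cartilage, namely Foxa2, Foxa3, Foxc1, Foxc2, Foxd1, Foxf1, Foxf2, Foxl1, Foxo1 and Foxo3. They were taken by name from the 19932 genes of the arrays, which hold 44 Fox genes in all. Each of the 10 had 1 probe set, so the rule that keeps the brightest probe set of a gene had nothing to choose among them. The samples were chondrocytes, the cells that make cartilage, and came from ICR mice, an outbred strain, that were wild-type and not treated. The nasal group is nasal septum at embryonic day 17.5 (n = 3) and the rib group is rib at postnatal day 1 (n = 3), and the labels call the samples of a group biological replicates. Site and age change together between the groups and cannot be told apart.

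Forkhead subfamilies have separate roles. FoxA proteins open closed chromatin, and in mouse cartilage Foxa2 and Foxa3 are known to drive genes of hypertrophic chondrocytes, the enlarged cells that precede bone. FoxC, FoxF, Foxd1 and Foxl1 act in mesenchyme, where several of them respond to Hedgehog signals, and FoxC proteins shape the skull and the spine. FoxO proteins are held out of the nucleus by insulin and IGF signals through the kinase Akt. An array reads their RNA and not that location.

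Levels are given as linear array intensities, and a group mean is the geometric mean of 3 arrays. A difference is nasal minus rib on the log2 scale, with its standard error (SE) and p from limma, adjusted over all 19932 genes by the Benjamini-Hochberg method, and a gene is called where that p lies under 0.05. All 8 chondrocyte markers of the list used here stood at or above the 95.4th percentile of gene levels in these samples. The median difference of all genes was 0.11, and it was 0.22 over the 9343 genes dimmer than the median gene level in both groups. In 77.7% of those dim genes, nasal replicate 1 was the highest of the 6 arrays. Over all genes, 13.8% were called higher in nasal and 14.7% higher in rib. Endothelial markers were called higher in nasal for 2 of 8 genes and smooth muscle and pericyte markers for 2 of 6. Perichondrial and fibroblast markers were called higher in rib for 3 of 8. Of those 3, Pdgfra kept its call in every alternative, while Col3a1 and Dcn both lost theirs without nasal replicate 2, rib replicate 2 or rib replicate 3.

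Of the 10 Fox genes, 4 were called, with Foxf1 and Foxd1 higher in nasal and Foxa3 and Foxa2 higher in rib. That is 40.0%, against 28.5% of all genes, 13.8% higher in nasal and 14.7% higher in rib. Calls were more frequent among brighter genes, with 44.3% of the genes not dim in both groups and 10.6% of those dim in both, and 7 of the 10 Fox genes are not dim in both. Foxf1 and Foxa3 differed by at least 2-fold, which 3.75% of all genes did with a call. In 8 of the 10 the 3 nasal and the 3 rib arrays did not overlap, 5 with nasal above and 3 with rib above. Over all genes 45.7% did not overlap, 24.0% with nasal above and 21.7% with rib above. This too went with level, as the groups overlapped in 3734 of the 10589 genes not dim in both groups and in 7099 of the 9343 dim ones. The median difference of the 10 was 0.09, close to that of all genes.

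**Figure D1:**
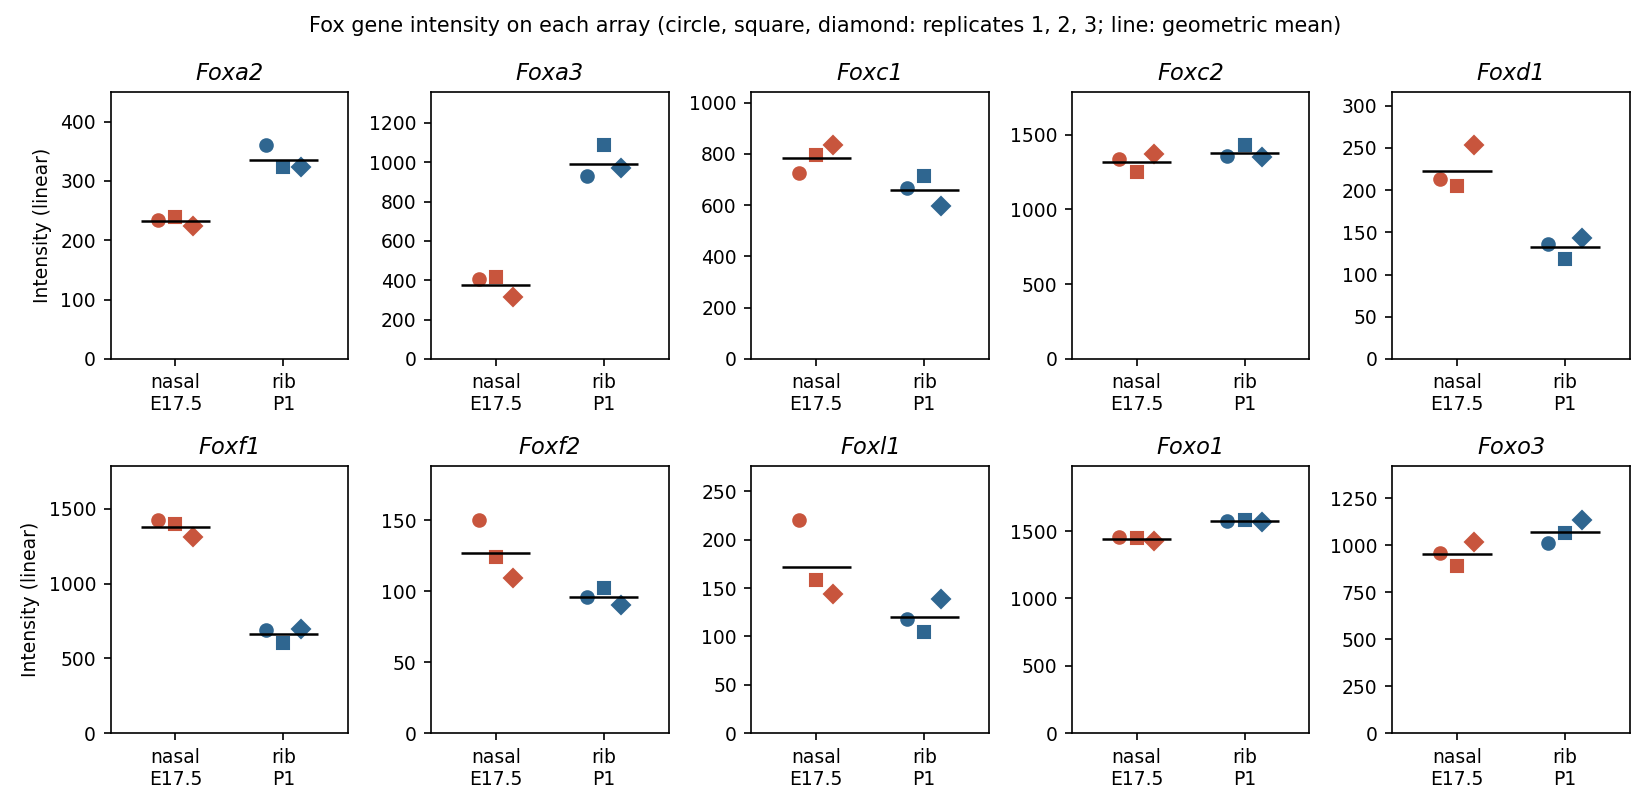
Intensity (linear scale, each panel with its own axis from 0) of the 10 Fox genes on every array, with nasal septum at embryonic day 17.5 in red and rib at postnatal day 1 in blue. Symbols mark replicates 1 to 3 and lines mark the geometric mean of 3 arrays. The arrays of the 2 groups lie apart in 8 panels and overlap for Foxc2 and Foxo3.

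The FoxA genes were higher in rib. Foxa3 read 404, 418 and 317 on the nasal arrays and 928, 1086 and 970 on the rib arrays. Every rib array was more than double every nasal one, and nasal replicate 3 was the lowest. The group means of 377 and 992 gave a difference of -1.40 (SE 0.13, limma adjusted p = 0.000631), a 2.63-fold higher level in rib. It ranked 277th of all genes by size of difference.

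Foxa2, the relative of Foxa3 that also acts in early endoderm and floor plate, read 234, 239 and 225 in nasal against 360, 324 and 324 in rib. The 2 groups lay clearly apart, with rib replicate 1 the highest. Its difference was -0.53 (SE 0.09, limma adjusted p = 0.00554), or 1.44-fold. Fewer cells that make a transcript and less of it per cell cannot be told apart in such bulk samples. Foxa1, the third FoxA gene, went the other way in the means at 180 in nasal and 139 in rib, but its groups overlapped and it was not called (0.37, SE 0.27, limma adjusted p = 0.322). Foxa1 and Foxa2 are also made by airway epithelium. Of 10 markers of respiratory and olfactory epithelium, Omp and Cdh1 were called higher in nasal and Epcam higher in rib. Of all genes, 13.8% were called higher in nasal and 14.7% higher in rib. The marker list holds Foxa1 itself and Foxj1, another Fox gene, so it is not independent of the Fox values. Without rib replicate 1 neither Omp nor Cdh1 was called, and Cdh1 was not called without rib replicate 2. The summed intensity of the 10 markers, Foxa1 included, was 2101 to 2781 over the nasal arrays and 2021 to 2352 over the rib arrays. Whether such cells had a part in the FoxA values was not tested.

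RefSeq promoters of build GRCm38.p6, from 250 bases before the gene's start through its first 50 bases, were found for 7 of the 10 genes and not used for Foxf1, Foxc2 and Foxl1. Foxa2 had 2 further windows at other transcript starts, so the window at the gene's start was taken for each of the 7. Those of the called genes are printed here so that the 2 that were higher in rib can be set beside the 1 that was higher in nasal. Capitals mark matches on either strand to CCAAT (seen as ATTGG on the reverse strand) or to the TATA box TATAAA. No 2 matches overlapped.
Foxa3, chr7:19023490-19023789, minus strand: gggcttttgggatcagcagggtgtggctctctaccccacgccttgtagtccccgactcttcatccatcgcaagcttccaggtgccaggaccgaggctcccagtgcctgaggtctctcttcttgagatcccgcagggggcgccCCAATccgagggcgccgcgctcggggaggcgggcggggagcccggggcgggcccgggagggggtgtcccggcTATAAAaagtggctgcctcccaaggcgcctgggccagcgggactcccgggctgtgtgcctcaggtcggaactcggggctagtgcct
Foxa2, chr2:148046920-148047219, minus strand: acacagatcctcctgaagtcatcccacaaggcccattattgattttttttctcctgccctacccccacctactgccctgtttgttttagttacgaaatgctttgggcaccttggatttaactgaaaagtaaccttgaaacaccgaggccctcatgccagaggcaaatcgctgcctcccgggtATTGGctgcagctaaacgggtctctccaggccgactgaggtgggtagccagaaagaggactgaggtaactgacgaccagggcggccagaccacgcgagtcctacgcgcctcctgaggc
Foxd1, chr13:98353995-98354294, plus strand: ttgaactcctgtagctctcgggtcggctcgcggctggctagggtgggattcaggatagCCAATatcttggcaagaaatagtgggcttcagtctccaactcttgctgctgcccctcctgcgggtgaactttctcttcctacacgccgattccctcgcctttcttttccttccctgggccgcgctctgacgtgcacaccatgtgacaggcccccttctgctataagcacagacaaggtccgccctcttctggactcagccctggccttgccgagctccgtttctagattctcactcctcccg

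Foxa3 was the only one of the 7 whose window held TATAAA, starting 36 bases before the gene's start, with a CCAAT 108 bases before it. One of the 2 further Foxa2 windows held TATAAA too, 208 bases before its own start on the reverse strand. Foxa2 held a CCAAT 68 bases before its start on the reverse strand, and Foxd1 one 192 bases before its start. CCAAT was in 5 of the 7 windows and in 37.4% of 32851 mouse promoter windows of this length, and TATAAA in 13.6% of these. The forkhead site TGTTTAC, present in 3.65% of the windows, was in 0 of the 7. The Sox sites ACAAAG (18.7% of windows) and ACAATG (12.6%) gave 1 window with a match among the 7, that of Foxo3, and that same further Foxa2 window held ACAAAG on both strands. The shares are over all windows, with more than 1 for some genes. The 7 windows held 12 to 35 CpG pairs, where the median window held 7.

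Among 18 genes of hypertrophic chondrocytes, 6 were called higher in rib and 3 higher in nasal, and their median difference of -0.12 lay below the 0.11 of all genes. Of the 18, 17 were above the median gene level, and over the 10589 genes not dim in both groups the median was -0.06, with 2783 called higher in rib. Bmp6, a ligand of the BMP family, read 1596 in nasal and 5043 in rib (-1.66, SE 0.11). The matrix phosphoprotein gene Spp1 (-1.51, SE 0.11) and the vessel growth factor gene Vegfa (-0.58, SE 0.10) went the same way. Ibsp, a bone sialoprotein gene, ran opposite at 1211 in nasal and 294 in rib (2.04, SE 0.23), with the cell cycle inhibitor Cdkn1c (0.83, SE 0.17) and the alkaline phosphatase gene Alpl (0.48, SE 0.09). Col10a1 and Mmp13, named for their known place under FoxA in mouse cartilage and picked with their values known, were not called. Col10a1 had a difference of -0.09 with a 95% interval of -0.31 to 0.12. Mmp13 had -0.13, with the wide interval of -0.85 to 0.60, and its rib arrays ran from 402 to 937.

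**Figure D2:**
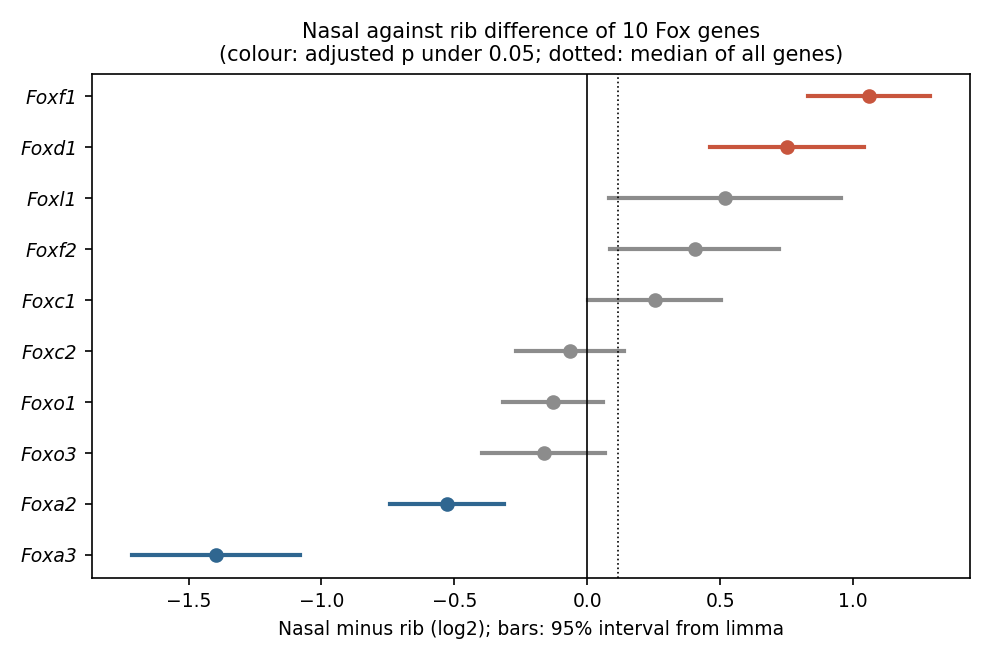
Nasal minus rib difference on the log2 scale for the 10 Fox genes, with 95% intervals from limma. Red marks genes called higher in nasal, blue those called higher in rib and grey those not called, and the dotted line is the median of all genes at 0.11. Foxf1 and Foxa3 stand at the ends, at 1.06 and -1.40.

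The FoxF genes and Foxl1 had higher means in nasal, but Foxf1 alone of the 3 was called. Foxf1, a Hedgehog-responsive factor of mesenchyme, read 1428, 1399 and 1313 in nasal and 688, 604 and 697 in rib. The arrays of each group lay close together and the groups were about 2-fold apart. The difference was 1.06 (SE 0.10, limma adjusted p = 0.000535), or 2.08-fold, and ranked 642nd of all genes.

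Foxf2, which is needed for the palate, read 151, 124 and 109 in nasal and 95.7, 102 and 90.1 in rib. The groups did not overlap, but nasal replicate 3 lay just above rib replicate 2. Its difference of 0.40 (SE 0.13, 95% interval 0.09 to 0.72) missed the threshold (limma adjusted p = 0.0635). Without nasal replicate 3 it was called at 0.51, and at 0.40 when genes under the 25th percentile of gene levels were left out. After quantile normalization it shrank to 0.16 (limma adjusted p = 0.343).

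Foxl1, a marker of mesenchyme beneath the gut lining, read 221, 159 and 144 in nasal and 118, 105 and 139 in rib. Nasal replicate 1 stood well above the other two, and nasal replicate 3 was just over rib replicate 3. The difference of 0.52 (SE 0.18, 95% interval 0.08 to 0.96) also missed the threshold (limma adjusted p = 0.0775). It was called in 6 of 14 alternatives, among them quantile normalization (0.33, limma adjusted p = 0.0298), and fell to 0.34 without nasal replicate 1 (limma adjusted p = 0.120). Foxf2, Foxl1 and Foxd1 are the 3 of the 10 below the median gene level. Their differences were tested against 0 and not against the median of 0.22 over the genes dim in both groups. The intervals of Foxf2 and Foxl1 include 0.22.

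Vessel cells, some of which make Foxf1, were read by their markers. Called higher in nasal were 2 of 8 endothelial ones and 2 of 6 of smooth muscle and pericytes, against 13.8% of all genes. The smooth muscle actin gene Acta2 read 1505 in nasal and 508 in rib (1.57, SE 0.12), and the actin-binding protein gene Tagln 286 and 162 (0.82, SE 0.13). The summed intensity of 6 smooth muscle and pericyte markers was 2382 to 2857 in nasal and 1414 to 1539 in rib. Acta2 alone gave 1336 to 1659 of it in nasal and 469 to 545 in rib, so the sum largely repeats that gene. Among endothelial genes, Emcn (1.30, SE 0.19) and Cdh5 (1.05, SE 0.22) were called higher in nasal. The sum of 8 markers, these 2 included, was 1155 to 1625 in nasal and 856 to 1066 in rib. All 8 endothelial markers were below the median gene level, and nasal replicate 1 was the highest array in 7 of them. Markers without a call included Cldn5 (0.02) and Esam (0.04) of endothelium and Des (0.05) and Cnn1 (-0.25) of smooth muscle. The part of these cells in the Foxf1 and Foxd1 values was not tested.

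Hedgehog genes, the signal upstream of several of these factors, were divided, with 4 of 19 called higher in nasal and 4 in rib. Their median difference was 0.15. The calls made up 42.1% of the 19, against 28.5% of all genes. The share was 44.3% of genes not dim in both groups and 10.6% of those dim in both. Of the 19, 5 lay below the median gene level. Hhat, which attaches the lipid to Hedgehog ligands (0.90, SE 0.08), the co-receptor Gas1 (0.65, SE 0.13) and Pthlh, the secreted brake on hypertrophy (0.52, SE 0.14), were higher in nasal. Disp1, which releases the ligands (-0.73, SE 0.09), the transcription factor Gli3 (-0.73, SE 0.10) and the co-receptor Boc (-0.51, SE 0.14) were higher in rib. The remaining calls were the receptor Ptch1 (0.51, SE 0.12) in nasal and the cartilage ligand Ihh (-0.45, SE 0.11) in rib, both named with their values known. Ptch1, Pthlh, Ihh and Boc lost their calls in 4 or 5 of the 6 fits that left out 1 array, and the counts fell to 2 and 2 without nasal replicate 2, rib replicate 1 or rib replicate 2. The rib count was also 2 without rib replicate 3. Gli1, a direct target of the pathway, read 299 in nasal and 230 in rib without a call (0.38, SE 0.13, limma adjusted p = 0.0758).

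Foxd1, a factor of the kidney stroma and of facial mesenchyme, read 213, 205 and 253 in nasal and 136, 119 and 144 in rib. The lowest nasal array stood well over the highest rib array. The difference was 0.75 (SE 0.12, limma adjusted p = 0.00468), or 1.68-fold, and in this dim gene the highest array was nasal replicate 3 rather than nasal replicate 1. The call was kept in all 14 alternatives that tested the gene, with values of 0.58 to 0.81.

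Neither FoxC gene was called. Foxc1, needed for the skull vault in mice, read 726, 797 and 833 in nasal and 667, 713 and 598 in rib. The groups came close without overlap, at 726 against 713. The difference was 0.25 (SE 0.11, 95% interval 0.0024 to 0.50, limma adjusted p = 0.120). Quantile normalization (0.37, limma adjusted p = 0.0168) and cyclic loess (0.39, limma adjusted p = 0.0127) brought it past the threshold, and median centring took it to 0.19 (limma adjusted p = 0.357). Foxc2, which acts in the vertebral column and the palate, read 1335, 1253 and 1372 in nasal and 1359, 1428 and 1352 in rib. Those ranges overlapped and the difference was -0.06 (SE 0.09, 95% interval -0.27 to 0.14), with the sign turned after cyclic loess at 0.0041.

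In a list of 16 cartilage and patterning genes, chosen to be read beside FoxC and FoxF, 5 were called higher in nasal and 2 in rib. Their median difference was 0.17. The calls made up 43.75% of the 16, against 28.5% of all genes. The share was 44.3% of genes not dim in both groups and 10.6% of those dim in both. Of the 16, 6 lay below the median gene level. Tfap2a, a neural crest factor (3.43, SE 0.10), and the homeobox genes Alx4 (1.61, SE 0.09) and Msx2 (1.01, SE 0.10) led on the nasal side. The somite factor Meox2 (-0.63, SE 0.18) and Sox9, the master factor of cartilage (-0.28, SE 0.09, limma adjusted p = 0.0491), made up the rib side. Sox9 lost its call in all 6 fits that left out 1 array and Meox2 in 4 of them, all but those without nasal replicate 1 or rib replicate 1.

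Neither FoxO gene was called. Foxo1 read 1457, 1446 and 1425 in nasal and 1577, 1585 and 1567 in rib. The arrays of each group agreed closely and the groups did not overlap, yet the difference was only -0.13 (SE 0.08, 95% interval -0.32 to 0.06, limma adjusted p = 0.263). The log2 values of Foxo1 had an SD of 0.016 in nasal and 0.0081 in rib (n = 3 each), while limma draws each gene's spread toward that of all genes. Foxo3 read 957, 888 and 1019 in nasal and 1010, 1064 and 1136 in rib, overlapping at nasal replicate 3, with a difference of -0.16 (SE 0.10, 95% interval -0.39 to 0.07). Foxo1 and Foxo3 thus had rib means above nasal means by amounts too small for a call.

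Of 19 signalling genes upstream of FoxO, 5 were called higher in nasal and 2 in rib. That is 36.8%, against 44.3% of the genes not dim in both groups, and none of the 19 lay below the median gene level. The catalytic subunit gene Pik3cb of PI3-kinase read 1372 in nasal and 601 in rib (1.19, SE 0.09), its regulatory subunit gene Pik3r1 2739 and 1297 (1.08, SE 0.11), and the Akt-related kinase Sgk1 2723 and 1818 (0.58, SE 0.12). The insulin receptor substrate Irs1 read 1069 in nasal and 2635 in rib (-1.30, SE 0.13), and the kinase Stk4, which phosphorylates FoxO proteins, 461 and 660 (-0.52, SE 0.09).

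Of 30 genes known as FoxO targets, 7 were called higher in nasal and 1 in rib, while 14 had a positive and 16 a negative difference. The calls made up 26.7% of the 30, against 28.5% of all genes and 44.3% of those not dim in both groups. Of the 30, 4 lay below the median gene level. Among the 10589 genes not dim in both groups, 1906 were called higher in nasal and 2783 higher in rib. The median of the 30 was -0.03. Bnip3, of mitochondrial autophagy (1.03, SE 0.14), Ccng2, a cyclin that accompanies cell cycle exit (0.98, SE 0.08), and the death ligand Tnfsf10 (0.98, SE 0.19) had the largest nasal differences. Klf15, a Krüppel-like factor, was the rib call (-0.30, SE 0.08). That count of 1 went up to 8 with trend and robust settings and to 3 without nasal replicate 3, and it was 0 without nasal replicate 2 or any 1 of the rib replicates.

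Whether relatives differed by unequal amounts was asked of the log2 ratio of the 2 genes on each array, in 4 pairs. The nasal minus rib difference of Foxf1 exceeded that of Foxf2 by 0.66 (SE 0.15), that of Foxa2 exceeded Foxa3 by 0.87 (SE 0.15) and that of Foxc1 exceeded Foxc2 by 0.32 (SE 0.09). The ratios of the nasal and the rib arrays did not overlap in these 3 pairs. The value for Foxf1 over Foxf2 ranged from 0.54 to 1.00 over the alternatives, highest after cyclic loess. The exact two-sided permutation test of 3 against 3 arrays gave p = 0.1 for each, the smallest it can give, or 0.133 adjusted over the 4 pairs. Foxo1 over Foxo3 came to 0.04 (SE 0.08, exact permutation p = 0.7), with overlapping ratios and a sign that turned in 4 alternatives.

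Beyond these 10, the arrays held 34 other Fox genes, of which 3 were called higher in nasal and 3 in rib. That is 17.6%, against 28.5% of all genes. Foxp1, a repressor active in heart, lung and lymphocytes, had the largest difference of any Fox gene apart from Foxa3, with 1767, 1878 and 1756 in nasal against 770, 754 and 855 in rib. Each nasal array was more than double each rib array, with a difference of 1.18 (SE 0.09, limma adjusted p = 0.00034), and its 3 probe sets gave 0.88 to 1.18. Its relative Foxp2 (0.44, SE 0.13) and Foxb1 (0.54, SE 0.11) were also higher in nasal. Foxk2 (-0.60, SE 0.10), Foxn3 (-0.49, SE 0.10) and Foxj2 (-0.31, SE 0.08) were higher in rib. Foxj2 lost its call in 8 of 15 alternatives and Foxp2 in 5, and Foxb1 after quantile normalization.

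Of the 34, 17 lay below the median gene level, 16 of these had a positive difference and their median was 0.20, beside the 0.22 of all genes that are dim in both groups. Nasal replicate 1 was the highest array in 16 of the 17. The 17 brighter ones had a median of 0.07.

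**Figure D3:**
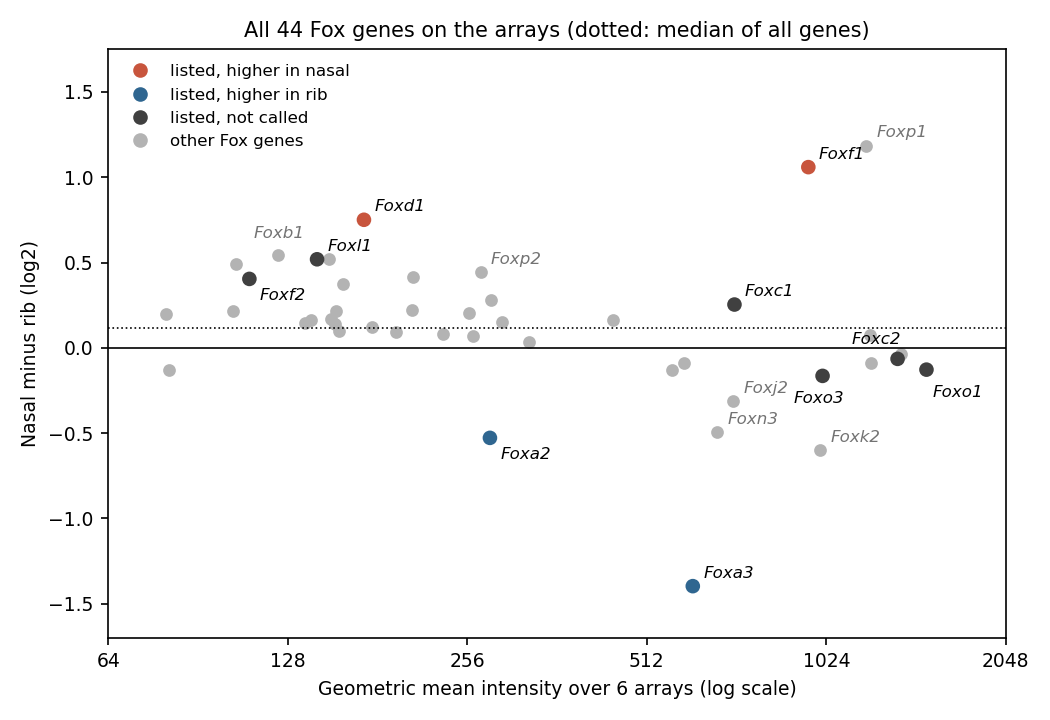
Nasal minus rib difference (log2) of all 44 Fox genes against their geometric mean intensity over 6 arrays (log scale), each point 1 gene. Coloured and black points are the 10 listed genes, grey points the other 34, of which those called carry names. Most of the dim genes on the left lie a little above 0, while Foxf1, Foxp1 and Foxa3 stand far from it.

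Neighbours were read in GRCm38.p6 order among the genes measured on the arrays only, so unmeasured genes may lie between them. In that order, mouse chromosome 8 holds Foxf1, Mthfsd, Foxc2 and Foxl1 side by side. Foxf1 was higher in nasal at 1.06, while Mthfsd (-0.19, SE 0.11) and Foxc2 (-0.06, SE 0.09) were not called. On the other side of Foxf1, with starts 348 kilobases apart, lies Irf8, an interferon regulatory factor gene of blood cells. Irf8 was higher in nasal with 297 against 179 (0.73, SE 0.11). The second measured gene past Foxl1, Fbxo31, with starts 422 kilobases apart, was higher in rib (-0.43, SE 0.08). Chromosome 13 carries Foxf2 and then Foxc1, both without a call, and next to Foxc1 the gene Gmds of fucose synthesis, which was higher in rib (-0.33, SE 0.09) but lost its call in 8 of 15 alternatives.

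Both measured genes that flank Foxa3 on chromosome 7 were higher in rib too. Sympk, a scaffold of RNA 3′-end processing, read 836, 839 and 868 in nasal and 1349, 1421 and 1542 in rib (-0.76, SE 0.09, limma adjusted p = 0.00136). Irf2bp1, a corepressor, read 467, 443 and 462 in nasal and 694, 631 and 757 in rib (-0.60, SE 0.10, limma adjusted p = 0.00488). The groups lay apart in both genes, by less than in Foxa3. Around Foxo1, Maml3, a Notch coactivator, was higher in nasal (0.91, SE 0.11) and Cog6, of the Golgi, higher in rib (-0.39, SE 0.09). Their starts lie 581 and 714 kilobases from that of Foxo1. Cog6 lost its call without nasal replicate 2, without rib replicate 2 and with the replicate number as a block.

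The genes nearest to Foxf1 and Foxa3 in pattern were found by the root mean square distance of the 6 centred log2 values, over 17471 other genes. They describe likeness on 6 arrays only. Ephx2 (0.04), Ctnnd2 (0.05) and Rxrg (0.05) were closest to Foxf1 by that distance, and their differences were 1.01, 1.07 and 1.03. Mtrr (0.09), Olfml3 (0.09) and Dusp15 (0.10) were closest to Foxa3, with differences of -1.45, -1.33 and -1.52.

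The calls of Foxa2, Foxa3, Foxd1 and Foxf1 were kept under every alternative that tested them. Foxa3 ranged from -1.47 to -1.26 and Foxa2 from -0.59 to -0.45. Foxf1 ranged from 0.99 to 1.17. The count of members called higher in nasal was 2 and reached 4 in 4 alternatives, through Foxc1, Foxl1 or Foxf2.

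**Figure D4:**
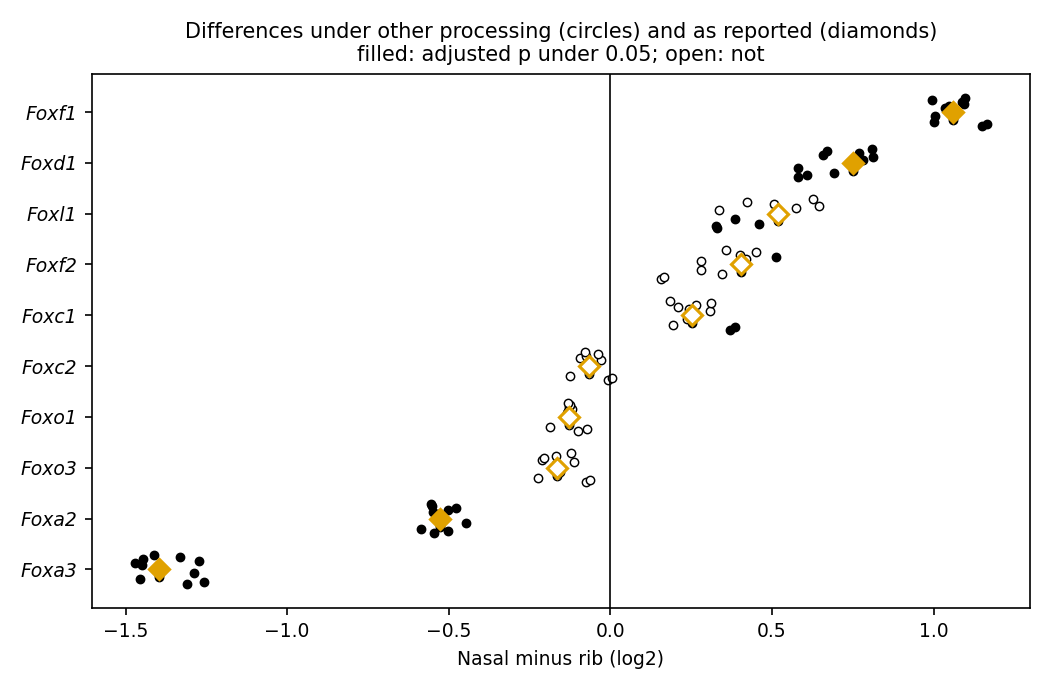
Nasal minus rib difference (log2) of each of the 10 Fox genes as reported (diamonds) and under the alternatives in processing (circles), filled where the limma adjusted p was under 0.05. Foxa2, Foxa3, Foxd1 and Foxf1 are filled throughout, Foxl1, Foxf2 and Foxc1 are filled in part, and the others are open.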

How the data were processed

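RNA was labelled (300 ng of total RNA each) with an Affymetrix whole-transcript kit, as the labels' protocols state. The authors deposited 1 table of linear intensity values for the 6 arrays. The submitters' processing notes name RMA, and its settings and any genome build were not given in the sources. After trimming 2% of probe sets at each end, every array had a mean intensity of 500, and 25th percentiles ran from 87.3 to 140, so dim genes were not levelled between arrays. RMA as usually run gives log2 values with equal distributions, so the named method and the deposited values disagree, and how they were made is unknown here. No detection calls were used. Probe sets (28451) were named through RefSeq accessions of GRCm38.p6, of which 24935 matched 1 symbol, and the brightest probe set was kept for each of 19932 genes. Values of log2 intensity, without a pseudocount, were tested in R 4.3.3 with limma 3.58.1 (lmFit, eBayes; checked on simulated data) over all 6 arrays with no covariate. The number of arrays limits the precision. Each limma p-value sets a difference against the spread between the samples of a group, which limma draws toward that of all genes.

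The 10 genes, the gene and marker lists and the tests were chosen with earlier results of these data known. Most genes were named by a rule. It took the 10 members, other Fox genes past the threshold and up to 3 called members of a list per direction. It also took up to 2 neighbours on each side where called and the 3 nearest in pattern to Foxf1 and Foxa3. Genes named outside that rule included Foxa1, Foxj1, Ptch1, Ihh, Gli1, Col10a1, Mmp13, Cldn5, Esam, Des, Cnn1, Myog and Mthfsd. Lists are given as counts, with no set test. Replicate numbers were not used to pair the samples, since the labels state no pairing. Same-numbered arrays deviated together at correlations of -0.02, 0.22 and -0.28, which with 3 arrays per group cannot settle whether they shared a batch. Alternatives were quantile normalization, cyclic loess, median centring, filters on dim genes, a pseudocount of 50, trend and robust settings, the mean over probe sets, the replicate number as a block and each array left out.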

Additional observations from a re-analysis of the deposited data

How the results depend on the processing

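Quantile normalization, cyclic loess, the filter at the 25th percentile and trend and robust settings each called 4 of the 10 genes higher in nasal in place of 2, while 2 were higher in rib under all 15 alternatives. Foxc1 was newly called after quantile normalization (0.37), cyclic loess (0.39), the filter at the median gene level (0.25) and trend and robust (0.25). Foxl1 was newly called after quantile normalization (0.33), cyclic loess (0.33), median centring (0.46), the 25th percentile filter (0.52), a pseudocount of 50 (0.39) and trend and robust (0.52). Foxf2 was newly called with the 25th percentile filter (0.40), and ranged from 0.28 to 0.51 with 1 array left out. Foxc2 turned sign after cyclic loess (0.0041). The Foxo1 over Foxo3 difference turned sign after quantile normalization (-0.025) and cyclic loess (-0.0077), and ran from -0.016 to 0.094 with 1 array left out. The filter at the median gene level left out Foxd1, Foxf2 and Foxl1. The median of all genes moved from 0.11 to -0.0015 under quantile normalization and to 0.0074 under cyclic loess. Of the other Fox genes, 7 were called higher in nasal under cyclic loess and 5 under trend and robust settings, against 3. Hedgehog genes higher in nasal numbered 7 with the 25th percentile filter and with trend and robust, and 2 to 4 with 1 array left out, as did those higher in rib. Higher in rib were 4 genes upstream of FoxO with the filter at the median and with trend and robust, against 2. FoxO targets higher in rib numbered 3 after quantile normalization, 3 after cyclic loess, 2 after median centring and with the mean over probe sets, 8 with the filter at the median and with trend and robust, 6 with the 25th percentile filter, 5 with a pseudocount of 50 and 0 with the replicate block, and 0 to 3 with 1 array left out. Cartilage and patterning genes higher in rib numbered 4 after quantile normalization, 1 after median centring and 0 with the replicate block, and 0 to 1 with 1 array left out, against 2. The nasal count over all genes (2746) ran from 1639 to 2596 with 1 array left out and the rib count (2937) from 1827 to 3168. Both were lowest without rib replicate 2, and the rib count was 1953 without nasal replicate 2. With the replicate number as a block, 1939 and 1964 were called, no call of the 10 Fox genes changed, and Foxf1 had a limma adjusted p of 0.0073. The cause of these changes was not tested. A filter leaves fewer genes to adjust over, and the SE moved with it too. For Foxa2 the SE was 0.090 as reported and 0.077 with the filter at the median gene level, at the same difference.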

Other observations

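Markers of 4 further cell types were read beside the Fox genes, as a description with no test of their part in any difference. Over all genes, limma called 13.8% higher in nasal and 14.7% higher in rib, so 1 call in such short lists is near the share of all genes. Of 6 skeletal muscle genes, limma called 2 higher in rib and 0 in nasal. These were the fast troponin gene Tnnt3, at 322 in nasal and 764 in rib, and the skeletal actin gene Acta1, at 237 and 356. The summed intensity of the 6 was 1069 to 1367 in nasal and 1651 to 1989 in rib, a sum that holds these 2 genes. Differences were negative in 5 of the 6. Myog ran opposite without overlap, at 160 in nasal and 116 in rib (0.46), and was not called. Acta1 lost its call without nasal replicate 1, nasal replicate 3, rib replicate 1 or rib replicate 3, and Tnnt3 kept its call in all 15 alternatives. Among 6 osteoblast genes the alkaline phosphatase gene Alpl was the 1 call, higher in nasal, while 4 of the 6 had a negative difference. Of 5 measured macrophage and osteoclast genes, the protease gene Ctsk was the 1 call, higher in rib. Ctsk lost that call in 8 of 15 alternatives. The other 4 genes had positive differences without a call, and the median of the list was 0.28. Of 5 measured erythroid genes, the heme synthesis gene Alas2 was the 1 call, also higher in rib. In that list 2 differences were positive and 3 negative.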
